A study of Mus musculus with 2 samples.

Results

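The regions described here are nucleosomes that were called at positions 30 to 80 bp apart in 2 libraries of mouse embryonic stem (ES) cells, 1 made after ethanol and 1 after tamoxifen. The members were chosen by measured values, namely position and score. A member is an autosomal pair of 1 ethanol and 1 tamoxifen call whose centres are each other's nearest, lie 30 to 80 bp apart and belong to calls that both score 100 or more. The centre is the midpoint of the deposited start and end, and the score is the authors' own value per call. There were 55387 such pairs among 297990 pairs of nearest centres in which both calls reached the score limit, at any distance. They are called shifted pairs below, as a name for the rule and not as evidence that a nucleosome moved. The 156031 pairs 0 to 10 bp apart with the same score limit are called stable pairs and serve as the comparison.

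Nucleosomes were mapped by MNase-seq, in which micrococcal nuclease cuts the linker DNA and the protected mononucleosome DNA is sequenced. All cells were Brg1fl/fl, that is, both alleles of Brg1 are floxed, and carried Actin-CreER, a Cre recombinase from an actin promoter that tamoxifen activates. They were grown on gelatin in serum-LIF medium. Cells of the tamoxifen group were exposed to the drug at 0.8 µM, and those of the ethanol group to the vehicle, over 24 hours. A further 48 hours in plain medium followed in both groups. DNA from the 12 U digest was sequenced in 1 library per group. The floxed gene was not analysed here, so the loss of Brg1 was not checked in these libraries. Cells that received tamoxifen without the Cre were not analysed here. With 1 library per group, treatment, digest, culture and sequencing depth cannot be told apart, no test was run, and intervals are 95% and cover counting error only.

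A nucleosome is a stretch of DNA wrapped around an octamer of histones. Remodeling complexes use ATP to slide, eject or space nucleosomes, and Brg1 supplies the ATPase to esBAF, the form of the SWI/SNF remodeler found in ES cells. A nucleosome that slides changes the place of its centre, the dyad, and in a regular array such a slide alters the linkers on both of its sides. A call in a list of positions sums many cells, so a change in which of several alternative positions is used can also displace the centre of a call.

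The ethanol list held 1289694 autosomal calls, of which 512157 scored 100 or more, and the tamoxifen list 1413182, of which 554396 did. Scores ran from 50.1 to 3250 in both lists and widths from 80 to 240 bp. All positions lie on a 10 bp grid, so centres lie on a 5 bp grid and a shift is a multiple of 5 bp. Chromosomes 8 and 12 held 7857 and 6094 members, against 1265 to 3717 on each of the other autosomes. Per 1000 ethanol calls with a score of 100 or more they had 130.8 and 127.3 members, against 93.5 to 109.1 on the others. The number of reads behind a call is unknown.

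Shifted pairs were the upper flank of a smoothly falling distribution of distances and did not form a separate class. Of the ethanol calls with a score of 100 or more, 10.8% belonged to a shifted pair, and of the tamoxifen calls 9.99% did. Among pairs of nearest centres with both scores 100 or more, 18.6% were shifted (55387; exact Poisson interval 54927 to 55850) and 52.4% were stable (156031; 155258 to 156807). These shares follow from the limits of the rule and are a description. The remaining pairs were 78462 at 15 to 25 bp and 8110 at more than 80 bp.

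The number of pairs was highest at 5 bp (64832) and then fell with each further step up to 110 bp. Distances have no sign, so each step above 0 bp joins displacements to either side, unlike the 39564 pairs at 0 bp. At 25 bp, just outside the lower limit, there were 17868 pairs, and at 30 bp, just inside it, 13355. At 80 bp there were 995 pairs and at 85 bp, just beyond the upper limit, 794. From 35 to 80 bp each 5 bp step held between 0.74 and 0.79 times as many pairs as the step before it. No distance within the range of the members therefore stood out. Beyond 110 bp the decline was slower, with ratios of 0.74 to 1.17 between steps up to 200 bp.

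**Figure D1:**
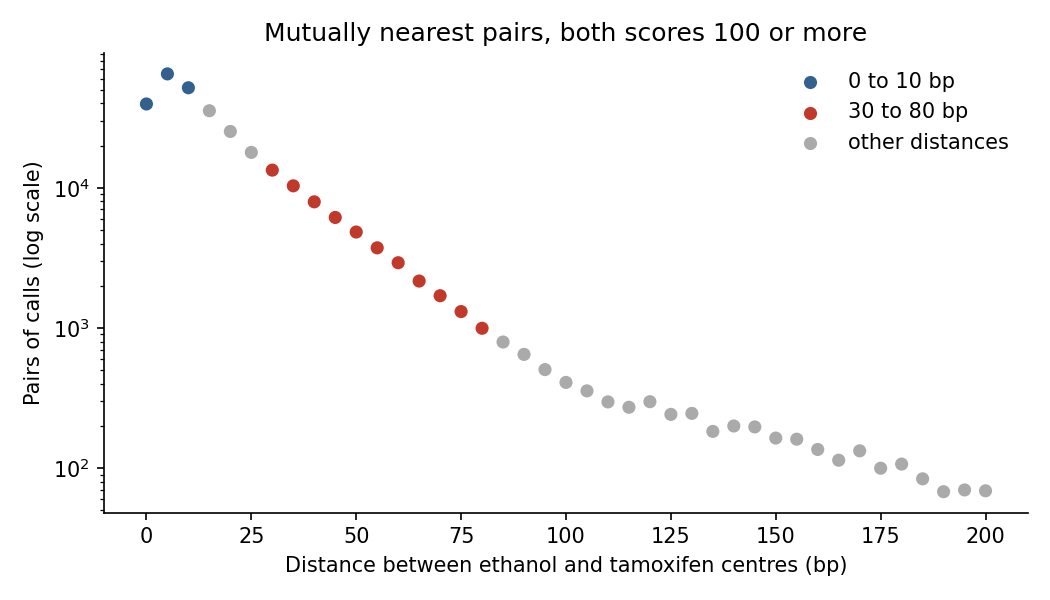
Number of mutually nearest pairs with both scores 100 or more (y axis, log scale) against the distance between the ethanol and the tamoxifen centre in bp (x axis), 1 point per 5 bp step, with stable pairs in blue, shifted pairs in red and other distances in grey. The counts fall from 13355 at 30 bp to 995 at 80 bp without a second maximum.

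Most members lay near the lower limit. The shift had a median of 40 bp and a mean of 43.6 bp. It was 30 to 40 bp in 57.1% of the members, 45 to 60 bp in 31.8% and 65 to 80 bp in 11.1%. Members were displaced to higher coordinates in 49.9% of cases (27659 of 55387; Wilson interval 49.5 to 50.4%), so neither direction along the chromosome was favoured. Per autosome this share ran from 48.6 to 51.5%.

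Shifted nucleosomes were less strongly scored than stable ones. The lower of both scores had a median of 133.4 in shifted pairs and 147.1 in stable pairs. Within the ethanol list alone, the median score was 159.3 for shifted and 174.1 for stable pairs, and within the tamoxifen list alone it was 160.2 and 177.4. Among shifted plus stable pairs, the shifted share fell with every class of the lower score. It was 30.4% (Wilson interval 30.1 to 30.6%) at scores of 100 to under 150, 20.3% (19.8 to 20.7%) at 200 to under 300, and 8.59% (7.49 to 9.83%) at 1000 or more. Members just inside the score limit, with a lower score of 100 to under 110, numbered 10362. Pairs just outside it, at 90 to under 100, numbered 13809, with a median shift of 40 bp in each of these groups. The size of the shift depended little on the score, with means between 41.9 and 44.0 bp over the 6 score classes.

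Width separated shifted from stable pairs more than score did. The mean width of the ethanol call was 129.8 bp in shifted pairs and 107.8 bp in stable pairs. For the tamoxifen call it was 129.4 and 108.1 bp. The difference in ethanol width had the same sign on 19 of 19 autosomes, which all come from the same libraries and do not count as replicates. Among shifted plus stable pairs, 15.9% (Wilson interval 15.6 to 16.2%) were shifted when the ethanol call was 80 or 90 bp wide. The share rose through every width class to 72.1% (70.9 to 73.3%) at 200 to 240 bp. By tamoxifen width it rose from 16.1 to 70.3%.

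The relation to width held within classes of score. Where the lower score was 300 or more, the shifted share rose from 5.90% (Wilson interval 5.40 to 6.46%) at an ethanol width of 80 or 90 bp to 63.8% (59.8 to 67.6%) at 200 to 240 bp. At scores of 100 to under 150 it went from 19.8 to 74.9%. In each of the 7 width classes the share was lowest where the score was 300 or more. A wide call has more room for its centre to differ at a given overlap, so width is linked to the rule through geometry.

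**Figure D2:**
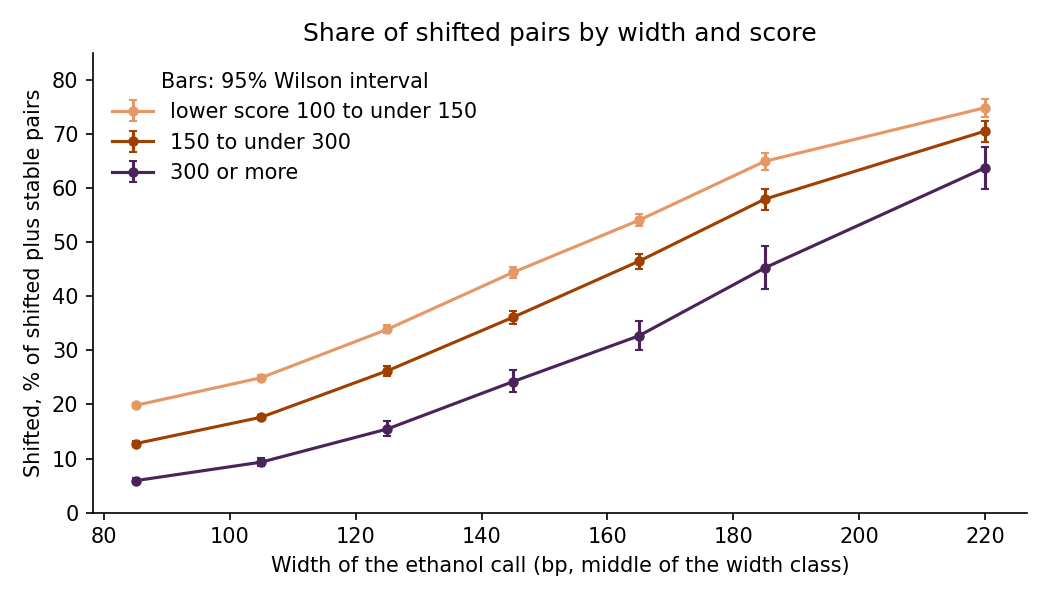
Shifted pairs as a percentage of shifted plus stable pairs (y axis) against the width of the ethanol call in bp (x axis), for 3 classes of the lower score of the pair; bars are 95% Wilson intervals. All 3 lines rise with width, and the line for scores of 300 or more, from 5.90 to 63.8%, lies below the others.

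A frequent form of shifted pair was a call that was wide in 1 library and narrow in the other. Exactly 1 of both calls was 150 bp or wider in 51.2% of shifted pairs (28351; Wilson interval 50.8 to 51.6%), against 10.9% of stable pairs (10.8 to 11.1%). Both calls were that wide in 6.92% and 4.73%. The wide call was found about equally often in either library. The tamoxifen call was the wider in 45.6% of members, the narrower in 46.5% and equally wide in 7.89%. Widths were equal in 32.5% of stable pairs.

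The edges of the calls show how the centres came to differ. Both edges lay on the same side of their counterparts in 77.7% of members, and in 57.9% each edge was displaced by at least 20 bp. In the other 22.3% (Wilson interval 22.0 to 22.7%) 1 call lay within the span of its partner, in 13.97% with 1 edge in common. Of those with a common edge, the tamoxifen call was the wider in 49.9% (48.8 to 51.0%). Calls of shifted pairs still overlapped by 80 bp in the median, and 8 of 55387 did not overlap at all.

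Members whose calls were of equal width are the plainest case of a displaced footprint, since the whole call is offset. There were 4371 of them. On the 10 bp grid their shift was 30 bp in 2413 (55.2%), 40 bp in 913 (20.9%), 50 bp in 475 (10.9%) and 60 to 80 bp in 570 (13.0%).

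The members with the highest scores were at the ceiling of the score in both lists. In 12 members both calls had a score of 3250, and the first 5 in chromosome order are named, with mm9 positions as deposited. On chromosome 2 the ethanol call reached from 22444431 to 22444591 and the tamoxifen call from 22444431 to 22444521, a shift of -35 bp with a common start. On chromosome 8 an ethanol call from 19759971 to 19760181 was paired with a tamoxifen call from 19760061 to 19760191, a shift of 50 bp. Nearby on the same chromosome, the calls from 19940801 to 19940961 and from 19940801 to 19940901 had a common start and a shift of -30 bp. The calls from 19971171 to 19971321 and from 19971231 to 19971321 had a common end and a shift of 30 bp. In a further pair on chromosome 8 the ethanol call, 81115571 to 81115661, was the narrower and the tamoxifen call, 81115571 to 81115731, the wider, with a shift of 35 bp. In 4 of these 5 members 1 edge was thus unmoved, and the centre differed through the width alone. What the genome holds at these places was not analysed here.

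Whether members were displaced toward or away from the next nucleosome was asked with the nearest other ethanol call within 400 bp as the neighbour. Toward means that the tamoxifen centre lay on the neighbour's side of the ethanol centre. A slight majority of members was displaced toward the neighbour. Of 29253 members with such a neighbour, 15332 were displaced toward it and 13921 away, which is 52.4% toward (Wilson interval 51.8 to 53.0%). The majority went the other way for the 8072 of them whose neighbour was itself in a pair 0 to 10 bp apart. Of these, 3657 were displaced toward the neighbour and 4415 away. Over all pairs with a shift above 0 and both scores 100 or more, 50.1% were displaced toward the neighbour. That pool also holds pairs more than 80 bp apart, for which the rule of nearest centres bars a shift toward a near neighbour. Among stable pairs 5 to 10 bp apart the share was 49.7% (49.3 to 50.1%). It was above 50% on 19 of 19 autosomes for the members, between 50.1 and 54.8%.

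The excess toward the neighbour was the same in kind when the libraries changed places. Seen from the tamoxifen call, the ethanol centre lay on the side of the nearest tamoxifen neighbour in 53.3% of 30847 members (Wilson interval 52.7 to 53.8%). This share too was above 50% on 19 of 19 autosomes. Here as well the majority went the other way where the neighbour was in a pair 0 to 10 bp apart. Of 7951 such members, the ethanol centre was displaced toward the neighbour in 3514 and away in 4437. A displacement toward the neighbour was thus not a feature of the tamoxifen library alone.

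As a share, the excess was largest at the closest neighbours. With an ethanol neighbour 80 to 140 bp away, 1292 of 1878 members were displaced toward it, or 68.8% (Wilson interval 66.7 to 70.9%). For stable pairs with a neighbour at that distance the share was 47.4% (45.1 to 49.8%). In the mirror view, with a tamoxifen neighbour 80 to 140 bp away, it was 73.1% (71.1 to 74.99%). At 145 to 195 bp all members together had 50.1% toward an ethanol neighbour (49.0 to 51.2%) and 52.0% toward a tamoxifen neighbour (50.9 to 53.1%). The ethanol value joins unlike parts, with 47.4% (45.9 to 48.9%) for shifts of 30 to 40 bp and 60.8% (57.6 to 63.9%) for shifts of 65 to 80 bp. At 250 to 295 bp the share was 55.5% (54.1 to 56.9%), and at 350 to 400 bp 49.2% (47.6 to 50.8%). Stable pairs had 52.4% (51.3 to 53.5%) at 250 to 295 bp.

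**Figure D3:**
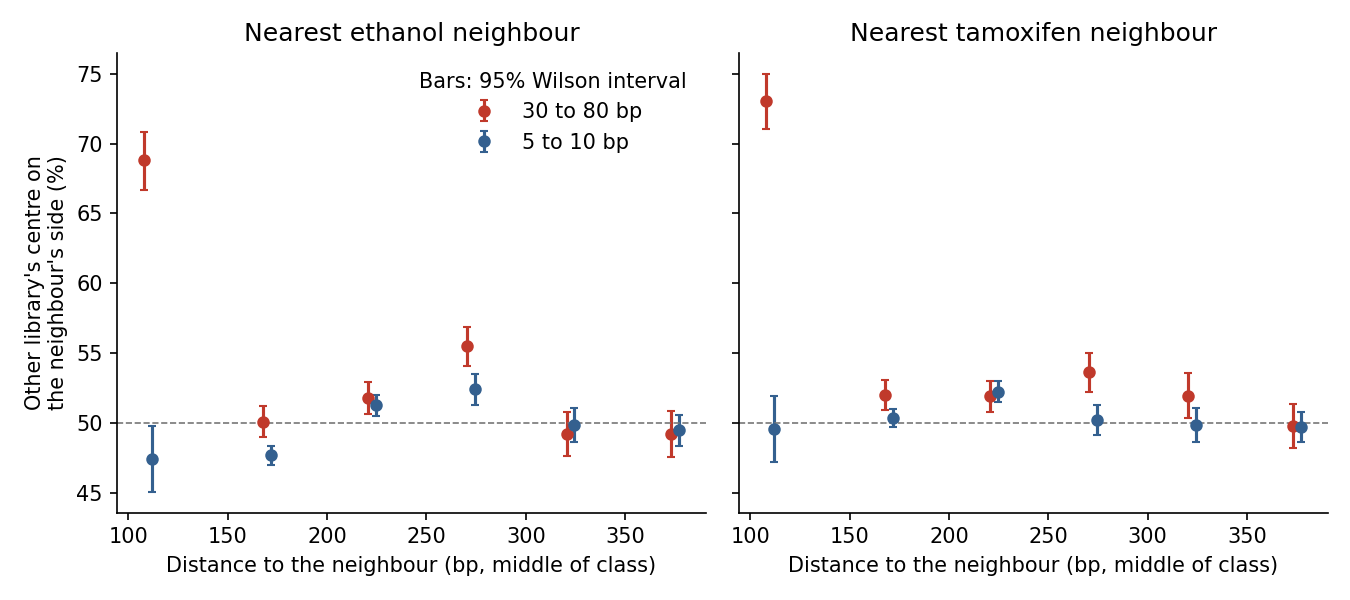
Percentage of pairs in which the centre of the other library lay on the side of the nearest neighbour (y axis) against the distance to that neighbour in bp (x axis), for ethanol neighbours on the left and tamoxifen neighbours on the right; red, shifted pairs, blue, pairs 5 to 10 bp apart, bars, 95% Wilson intervals. At 80 to 140 bp the shifted pairs stand at 68.8 and 73.1%, and in the other classes they stay between 49.2 and 55.5%.

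For members displaced toward a close ethanol neighbour, the tamoxifen list usually held a single wide call that was nearest to both ethanol calls. Among the 1292 members displaced toward an ethanol neighbour 80 to 140 bp away, the neighbour's nearest tamoxifen call was the member's own partner in 94.5% (Wilson interval 93.1 to 95.6%). The tamoxifen call was the wider of the pair in 85.6%, with mean widths of 96.5 bp with ethanol and 155.9 bp with tamoxifen. For the 586 members displaced away from such a neighbour, the shared partner was found in 29.4% (25.8 to 33.2%), and the mean widths were 97.1 and 116.1 bp. A partner displaced toward so near a neighbour lies between both ethanol calls. How much of the contrast in shared partners follows from this was not tested. The reverse arrangement was found as well. Among 1427 members with a tamoxifen neighbour 80 to 140 bp away on the side of the ethanol centre, 96.3% had a neighbour whose nearest ethanol call was the same call. Here the ethanol call was the wider, with a mean of 156.3 bp against 97.6 bp for the tamoxifen call.

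The form of the pair mattered at close range. In members with 1 call inside the span of its partner, 90.5% (Wilson interval 87.6 to 92.8%; 457 of 505) were displaced toward an ethanol neighbour 80 to 140 bp away. In those with both edges displaced by at least 20 bp it was 53.6% (50.5 to 56.6%; 548 of 1023). In members of equal width it was 43.8% (36.3 to 51.5%; 70 of 160). With tamoxifen neighbours 80 to 140 bp away these shares were 91.8% (89.2 to 93.8%), 60.1% (57.1 to 63.0%; 629 of 1047) and 48.7% (41 to 56.5%). All members with both edges on the same side of their counterparts had 60.8% (58.2 to 63.4%) toward ethanol and 66.0% (63.5 to 68.4%) toward tamoxifen neighbours at that distance. At 200 to 400 bp, where the rule of nearest centres bars neither direction, all members together had 51.7% toward (51.1 to 52.4%). Stable pairs had 50.9% at that range (50.4 to 51.4%), also above 50%, and the intervals overlapped. With tamoxifen neighbours at that range members had 51.9% (51.2 to 52.6%) and stable pairs 50.9% (50.4 to 51.4%). A small excess toward the neighbour was thus not particular to the members there. For ethanol neighbours the members' share was above 50% on 17 of 19 autosomes. By form it was 53.0% (52.1 to 53.9%) with both edges displaced by at least 20 bp, 52.0% (49.5 to 54.6%) at equal width and 48.8% (47.4 to 50.3%) with 1 call inside the span of its partner. With tamoxifen neighbours 200 to 400 bp away these shares were 52.6% (51.7 to 53.5%), 52.9% (50.4 to 55.3%) and 50.2% (48.8 to 51.7%). Among these forms the share at this range was thus lowest where 1 call lay inside its partner, the form with the highest share at 80 to 140 bp.

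Shifted pairs had about as many calls around them as stable pairs, but at other distances and with fewer stable neighbours. Within 1000 bp of the ethanol centre there were on average 2.12 other ethanol calls for shifted and 2.08 for stable pairs. An ethanol neighbour within 400 bp was present in 53.0 and 53.9%. Among pairs with a shift above 0, the nearest ethanol neighbour lay 80 to 140 bp away for 3.39% of shifted and 1.47% of stable pairs, and 145 to 195 bp away for 13.7 and 18.4%. The neighbour within 400 bp was itself in a pair 0 to 10 bp apart, at any score, in 27.6% of members (Wilson interval 27.1 to 28.1%) and 39.8% of stable pairs (39.5 to 40.2%). It was in a pair 30 to 80 bp apart in 16.2% and 12.2%. It had no mutually nearest tamoxifen call in 35.02% and 26.1%. By the rule, a neighbour whose nearest tamoxifen call is the pair's own can itself be in no pair. With the neighbour 200 to 400 bp away, this held for 26.0% of members displaced toward it and 16.7% displaced away. Stable pairs with a shift above 0 had 20.4 and 18.7%. At 145 to 195 bp the shares were 63.9 and 19.2% against 28.7 and 22.2%. How much of the lower share of stable neighbours follows from this was not tested.

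The lower share of stable neighbours, to which the same limit applies, was present on every autosome and in each class of score. A stable neighbour was less frequent beside members on 19 of 19 autosomes, with 21.9 to 30.3% for members and 36.7 to 43.7% for stable pairs. At lower scores of 300 or more the shares were 35.1% (Wilson interval 33.0 to 37.3%) and 50.9% (49.95 to 51.8%). Among pairs with both calls at most 120 bp wide they were 27.9% (26.9 to 28.8%) and 42.0% (41.6 to 42.3%).

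The spacing to a stable neighbour was alike in both libraries where that neighbour was the nearest in both lists. For 6195 members the same stable nucleosome was the nearest neighbour in both lists. Its distance had a median of 230 bp with ethanol (quartiles 195 and 285 bp) and of 230 bp with tamoxifen (195 and 285 bp). The distance was shorter with tamoxifen in 3125 and longer in 3070. Of those not equally far from it, 50.7% (Wilson interval 49.4 to 51.9%) were nearer to 190 bp with tamoxifen than with ethanol. A distance of 150 to 230 bp was found in 46.0% (44.8 to 47.2%) with ethanol and in 47.2% (46.0 to 48.5%) with tamoxifen. Neighbours of stable pairs chosen in this way had medians of 205 bp in both libraries.

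The way the neighbour was chosen decided the answer. With the neighbour nearest in the ethanol list, 46.1% (Wilson interval 44.97 to 47.2%) of 8072 members, less those equally far, were nearer to 190 bp with tamoxifen. Over all pairs with a shift above 0 this share was 48.3%. With the neighbour nearest in the tamoxifen list it was 55.5% (54.4 to 56.6%). Each choice favours short distances in the list it is made in, so no shift toward or away from regular spacing can be read from either.

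Successive members were displaced in the same direction more often than in opposite directions. Among 1201 couples of members that were successive ethanol calls at most 400 bp apart, 724 had the same direction, or 60.3% (Wilson interval 57.5 to 63.0%). Over all such couples of pairs with a shift above 0 and both scores 100 or more the share was 55.0%. For pairs 5 to 10 bp apart it was 53.7% (52.4 to 54.9%; 3385 of 6307). Of the opposite couples of members, 181 converged and 296 diverged. At 200 to 400 bp between ethanol centres 55.9% of couples of members had the same direction (52.7 to 59.1%). For pairs 5 to 10 bp apart it was 52.4% there (50.8 to 53.9%). The value for members joins unlike parts, with 68.3% at 200 to 245 bp and 44.7 to 52.7% in the classes from 250 to 400 bp. Within 400 bp the share for members was above 50% on 19 of 19 autosomes, with 19 to 300 couples each.

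Displacement in common was more frequent among close couples. With ethanol centres 80 to 195 bp apart, 74.3% of 284 couples had the same direction (Wilson interval 68.9 to 79.0%). There, 5 couples converged and 68 diverged. At 200 to 245 bp the share in the same direction was 68.3% (62.9 to 73.3%; 207 of 303), with 15 converging and 81 diverging. Close ethanol calls leave little room for converging couples, which by itself raises the share in the same direction. How much of the higher share among close couples follows from this was not tested. At 250 to 295 bp the share was 52.7% (46.2 to 59.1%), at 300 to 345 bp 44.7% (38.0 to 51.7%) and at 350 to 400 bp 51.9% (44.8 to 58.9%). Couples of pairs 5 to 10 bp apart had 55.9% at 80 to 195 bp and 53.3% at 200 to 245 bp.

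Couples taken as successive tamoxifen calls gave a like picture, with 60.9% of 1199 in the same direction (Wilson interval 58.1 to 63.6%). There 272 converged and 197 diverged as seen from ethanol to tamoxifen, the opposite order to that among successive ethanol calls. Close tamoxifen calls leave little room for diverging couples, as close ethanol calls do for converging ones, so nothing is read from this order. At 80 to 195 bp between tamoxifen centres 66 converged and 2 diverged, and at 200 to 400 bp 206 and 195 did. At 300 to 345 bp between tamoxifen centres the share was 37.0% (30.3 to 44.1%; 68 of 184), below 50%.

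**Figure D4:**
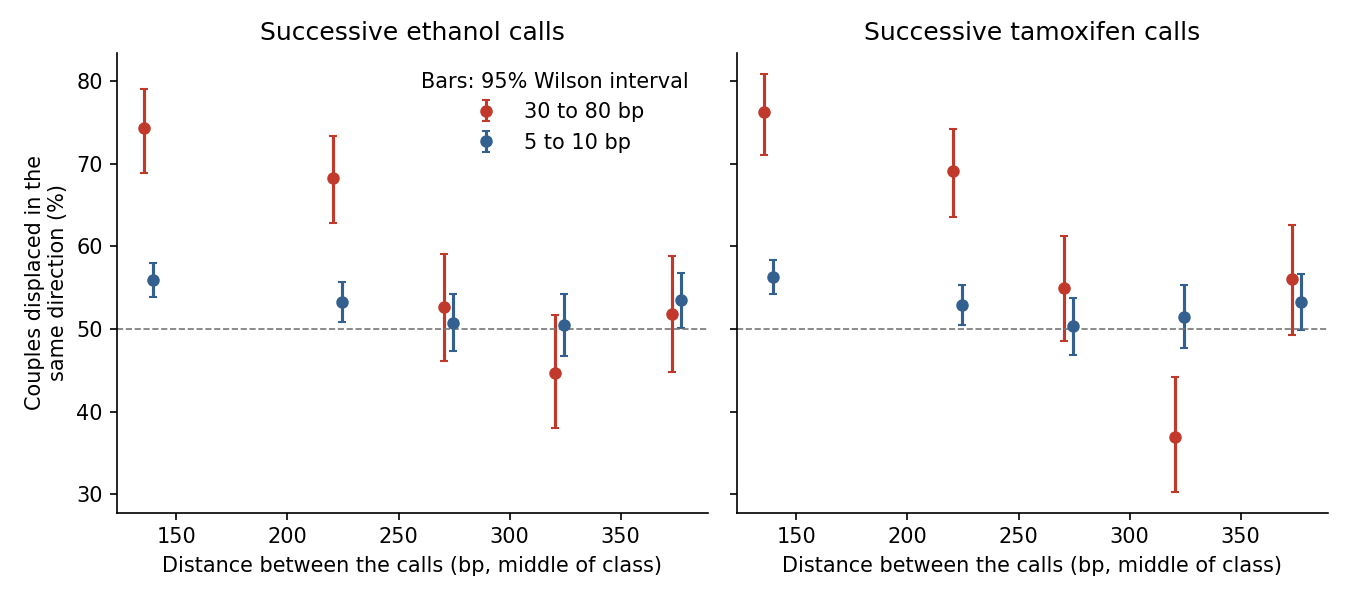
Percentage of couples displaced in the same direction (y axis) against the distance between both calls in bp (x axis), for successive ethanol calls on the left and successive tamoxifen calls on the right; red, shifted pairs, blue, pairs 5 to 10 bp apart, bars, 95% Wilson intervals. Shifted pairs fall from 74.3 and 76.3% in the closest class to 44.7 and 37.0% at 300 to 345 bp, and stand at 51.9 and 56.0% at 350 to 400 bp.

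The spacing of couples displaced in the same direction is narrowly bounded by the rule, since their shifts of 30 to 80 bp can differ by 50 bp at most, and 57.1% of all members have shifts of 30 to 40 bp. The distance between their centres had a median of 230 bp in either library. In 411 of 724 (56.8%; Wilson interval 53.1 to 60.3%) the distance differed by at most 10 bp between the libraries, and nothing is read from this share. Converging couples went from a median of 310 bp to 215 bp and diverging couples from 245 bp to 345 bp, as their definition implies.

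Runs of successive shifts in 1 direction were short. There were 713 runs of at least 2 members (exact Poisson interval 662 to 767), 702 of 2 and 11 of 3 members, and none was longer. They held 1437 members, or 2.59% of all. Pairs 5 to 10 bp apart, which are more numerous, had 3202 runs, of which 155 were of 3 and 14 of 4. They held 5.66% of those pairs. Of the runs of members, 344 went to higher coordinates (48.2%; Wilson interval 44.6 to 51.9%).

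The first run of 3 in chromosome order lay on chromosome 1, with ethanol centres at 87381081, 87381346 and 87381531. The tamoxifen centres lay at 87381146, 87381376 and 87381571, so the shifts were 65, 30 and 40 bp. The ethanol scores were 123.6, 204.6 and 676.6 and the tamoxifen scores 183.0, 423.4 and 706.8. A run of 3 singled out after its values were seen, for its narrow calls, lay on chromosome 12. Its ethanol centres were 35638181, 35638371 and 35638561 and its shifts -35, -40 and -40 bp. All 6 of its calls were 80 to 100 bp wide.

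**Figure D5:**
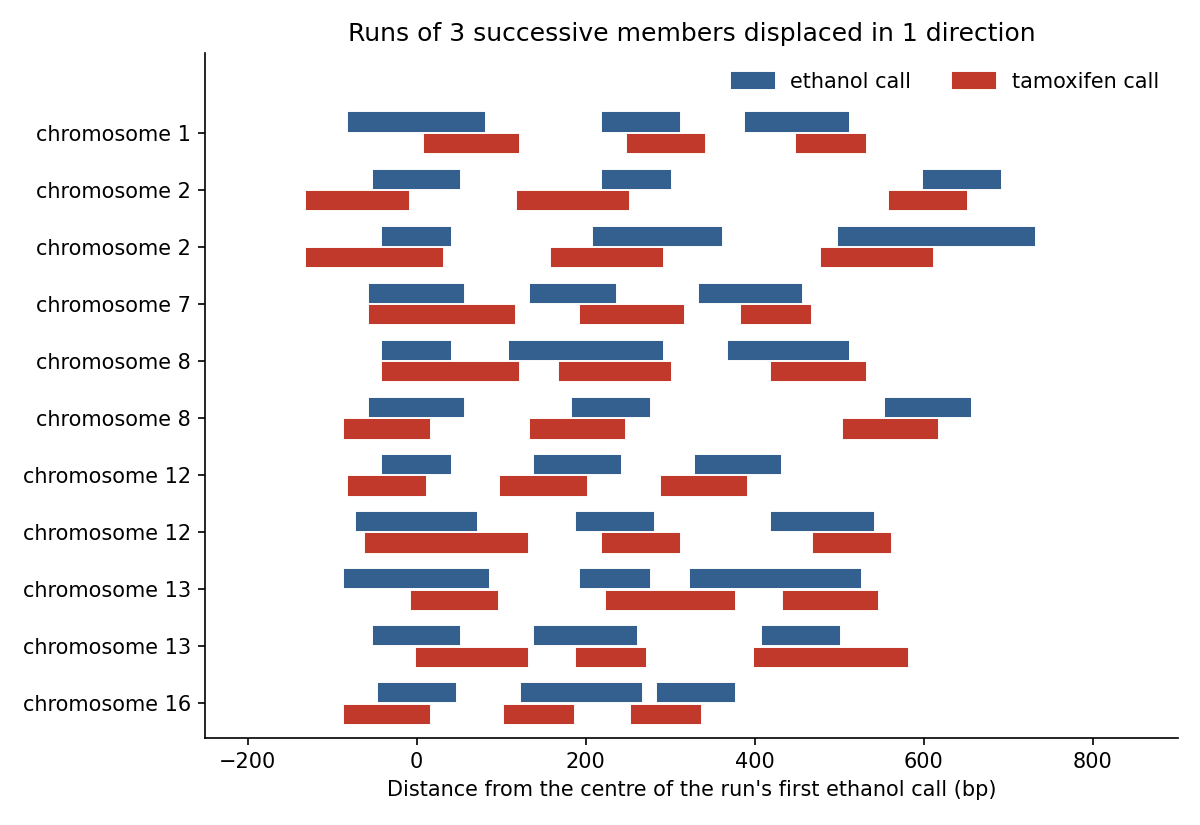
The 11 runs of 3 successive members, 1 row per run in chromosome order, with ethanol calls in blue above tamoxifen calls in red; the x axis gives the distance in bp from the centre of the run's first ethanol call, and the length of a bar is the width of the call. In 6 runs the tamoxifen calls lie to the right and in 5 to the left.

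Of the runs of 2, the 4 with the highest lowest score all went to higher coordinates. The first was on chromosome 12, with ethanol centres at 54030066 and 54030261 and a shift of 35 bp in both calls. The next, on chromosome 17, had ethanol centres at 87380916 and 87381241 and shifts of 30 and 80 bp. On chromosome 8, centres at 20026101 and 20026471 were displaced by 30 and 60 bp. On chromosome 2, centres at 24965031 and 24965226 were each displaced by 30 bp, with scores of 626.1 and 1240.7 in the ethanol list. In the runs on chromosomes 12 and 2 both members had the same shift, so the spacing of 195 bp was the same in both libraries.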

How the data were processed

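Nucleosome calls of 1 ethanol and 1 tamoxifen library were used, and groups were taken from the sample titles. Each list, as deposited by the authors, gives a position and a score per call. Per the submitters' processing notes, Bowtie 0.12.9 aligned the reads and positions are on mm9. How nucleosomes were called and how their scores were defined is not given in the sources used here. Scores were used only to filter, rank and describe calls within a list.

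Nearest centres were sought among all autosomal calls, and the score limit was applied afterwards. Pairs with a tied nearest centre were left out, which concerned 293 further pairs at 30 to 80 bp. A neighbour was the nearest other call of a list within 400 bp, at any score. A run joins members that are successive ethanol calls at most 400 bp apart. Named regions were the 5 members with the highest lower score, the longest run and the 4 next runs by lowest score, ties being taken in chromosome order. Shares have Wilson and counts exact Poisson intervals at 95%, and calls are not independent, so intervals are too narrow. No genome or annotation of mm9 was used here, so no gene or sequence is given. The members, lists and measures were chosen with earlier results of these data known. The pairing, direction and run procedures were tested on simulated lists with calls of equal width and equal score and no neighbour closer than 190 bp. That test therefore does not cover close neighbours or unequal widths. Alternatives concerned score, distance, width, ties, neighbours and chromosomes. The software was Python 3.11.15, pandas 2.3.3, numpy 2.4.6, matplotlib 3.10.9 and scipy 1.17.1.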

Additional observations from a re-analysis of the deposited data

Results flagged for a closer look

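The X chromosome was outside the comparisons. It held 336 pairs 30 to 80 bp apart with both scores 100 or more (exact Poisson interval 301 to 374), where a count of 0 would allow up to 3. They made up 16.3% (Wilson interval 14.7 to 17.9%) of its 2067 shifted plus stable pairs, against 23.5 to 27.3% on the autosomes. The mean ethanol width was 125.4 bp in its shifted and 100.2 bp in its stable pairs. Of 199 with an ethanol neighbour within 400 bp, 48.2% (41.4 to 55.2%) were displaced toward it.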

How the results depend on the processing

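No paired analysis was possible because no group has a second library. The alternatives by width, by the neighbour in the tamoxifen or in both lists and by successive tamoxifen calls were added with the data already seen. The number of shifted pairs, 55387, became 89290, 20322 and 8876 at score limits of 80, 150 and 200, 31714 at 40 to 80 bp, 32049 with both edges displaced by at least 20 bp and 13341 with both calls at most 120 bp wide. The 713 runs became 1453, 196 and 81 at these score limits, 256 at 40 to 80 bp, 336 by edges and 103 by width. They became 434 without chromosomes 8 and 12, 436 at most 250 bp apart and 1762 with other calls allowed between members up to 1000 bp apart. These counts change by construction.

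The share toward the nearest neighbour, 52.4%, stayed above 50% in all alternatives run. It was 53.1% and 53.4% at score limits of 150 and 200, 53.0% with the score limit applied before pairing, 53.3% at 40 to 80 bp, 51.7% with the neighbour 200 to 400 bp away and 53.3% with tamoxifen neighbours. Neighbours in a pair 0 to 10 bp apart were not taken alone in these alternatives. Among 8072 members with such an ethanol neighbour, 3657 were displaced toward it and 4415 away. The share of couples in the same direction, 60.3%, stayed above 50% in all alternatives run. It was 66.1% and 64.8% at score limits of 150 and 200, 65.6% by edges, 72.4% by width, 71.3% up to 250 bp, 55.9% at 200 to 400 bp and 53.3% up to 1000 bp. The value at 200 to 400 bp joins 68.3% at 200 to 245 bp with 44.7 to 52.7% in the classes from 250 to 400 bp. The share nearer to 190 bp with tamoxifen, 46.1%, was 48.7% with the neighbour 200 to 400 bp away and 48.6% by width. It turned to 55.5% with neighbours of the tamoxifen list and to 50.7% with those of both lists. The choice of the neighbour favours short distances in its own list, but how much of this turn follows from it was not tested. The cause of the other changes was not tested either.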

Other observations

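The displacement of a member and that of its nearest ethanol neighbour within 400 bp were compared at any score of the neighbour. The share in the same direction was higher the more the neighbour was displaced. It was 53.3% (Wilson interval 52.1 to 54.6%) for neighbours displaced by 5 to 10 bp, 58.2% (56.9 to 59.6%) at 15 to 25 bp and 61.9% (60.5 to 63.3%) at 30 to 80 bp. With the neighbour 200 to 400 bp away these shares were 51.4%, 53.8% and 57.0%. With the neighbour 80 to 195 bp away they were 59.2%, 71.0% and 75.3%. At that range converging displacements have less room the larger they are, and how much of the rise follows from this was not tested. Stable pairs displaced by 5 or 10 bp had 53.6%, 54.2% and 54.1% within 400 bp. With the neighbour 80 to 195 bp away they too had higher values for larger displacements of the neighbour, 55.8%, 59.6% and 60.6%, so a rise at close range was not particular to the members.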
